A study of Homo sapiens with 12 samples.

Results

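The genes described here are 38 genes of cholesterol and fatty acid synthesis, measured by RNA sequencing in 2 human prostate cancer cell lines after siRNA against FOXA1, a forkhead transcription factor. They were taken by gene name from tables of 60106 annotated genes, and each of the 38 names matched 1 gene. PC3, an established line from a bone metastasis, and VCaP, an established line from a vertebral metastasis, each had 3 libraries with non-targeting siRNA (NSI) and 3 with FOXA1-targeting siRNA (siFOXA1). PC3 grew in RPMI-1640 and received 20 nM siRNA, and its libraries were made from polyadenylated RNA with the TruSeq stranded mRNA kit. VCaP grew in DMEM and received 40 nM siRNA, and its libraries were made with the TruSeq total RNA kit. Both media held 10% foetal calf serum, so serum lipids were present in every group, and RNA was taken 72 hours after transfection. The labels do not say whether replicates were separate transfections, so p-values measure only the spread between these libraries. In these bulk libraries, less of an RNA in every cell and fewer cells that hold it cannot be told apart.

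Cells build cholesterol from acetyl-CoA through mevalonate and isoprenoid units to farnesyl diphosphate, then through squalene and lanosterol to cholesterol; fatty acids are built from the same acetyl-CoA by carboxylation, chain synthesis, desaturation and elongation. Both routes are controlled by the SREBP transcription factors, membrane-bound precursors made from SREBF1 and SREBF2, which SCAP escorts to the Golgi for cleavage when sterol is low and which INSIG proteins hold in the endoplasmic reticulum when it is plentiful. The liver X receptors (LXRs), which sense oxysterols, raise sterol export genes and SREBF1. Prostate cancer cells are known for active fatty acid synthesis, and FASN and other lipid genes are known to respond to androgen there.

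The 38 genes form 7 groups by role. The mevalonate steps are ACAT2, HMGCS1, MVK, PMVK, MVD, IDI1 and FDPS. The sterol branch is FDFT1, SQLE, LSS, CYP51A1, TM7SF2, MSMO1, NSDHL, HSD17B7, EBP, SC5D and DHCR7. SREBF1, SREBF2, SCAP, INSIG1 and INSIG2 control SREBP activity, and STARD4 carries sterol between membranes. Fatty acid synthesis holds ACLY, ACSS2, ACACA, FASN, SCD, ELOVL5, ELOVL6, FADS1 and FADS2. AACS, which activates acetoacetate for lipid synthesis, and LPIN1, a phosphatidate phosphatase of glycerolipid synthesis, form a pair. ABCA1, ABCG1 and MYLIP are LXR targets.

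Promoter sequences from RefSeq (GRCh38.p14) were available for 33 of the 38 genes, and the 250 bases before each start site were searched on both strands for 4 motifs. The CCAAT box is bound by NF-Y, a known partner of the SREBPs at their target promoters, and stood in 20 of 33 of these promoters (60.6%) against 33.0% of all 27305 promoters. It was in 8 of the 9 sterol-branch promoters with sequence, in 4 of 6 mevalonate promoters, in 4 of 8 fatty acid promoters and in neither of the AACS and LPIN1 promoters. The exact sterol regulatory element TCACNCCAC stood in 1 of 33, SREBF2, against 0.875% of all promoters. The forkhead motif TGTTTAC stood in 1 of 33, ELOVL6, against 2.98% of all promoters. The E-box CACGTG stood in 5 of 33 (15.2%: ABCA1, ELOVL5, INSIG1, SC5D and SCAP) against 6.49%. A match describes these letters in this window and is neither a binding site nor a cause. Stretches of 4 promoters are printed 5′ to 3′ in the direction of the gene, with motif matches on either strand in capitals. SREBF2 is shown for its sterol element beside a CCAAT box (read here as ATTGG), and ELOVL6 for its forkhead match (read as GTAAACA). MSMO1 and NSDHL are shown as sterol-branch promoters with 4 and 5 CCAAT matches, 2 of which overlap in NSDHL as CCAATTGG. The stretches are chr22:41832957-41833018 (plus strand), chr4:110198737-110198773 (minus strand), chr4:165327469-165327654 (plus strand) and chrX:152830820-152830998 (plus strand).
SREBF2: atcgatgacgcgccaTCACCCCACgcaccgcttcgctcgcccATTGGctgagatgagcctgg
ELOVL6: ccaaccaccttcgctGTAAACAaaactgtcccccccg
MSMO1: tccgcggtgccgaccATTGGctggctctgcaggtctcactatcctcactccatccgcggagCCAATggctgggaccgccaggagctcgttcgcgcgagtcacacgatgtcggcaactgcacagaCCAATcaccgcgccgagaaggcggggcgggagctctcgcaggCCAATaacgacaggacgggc
NSDHL: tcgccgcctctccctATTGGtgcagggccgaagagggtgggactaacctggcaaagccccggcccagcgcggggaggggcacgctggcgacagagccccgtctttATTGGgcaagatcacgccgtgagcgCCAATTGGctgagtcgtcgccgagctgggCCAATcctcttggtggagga

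Levels are given as CPM, read counts scaled to a common library size with TMM factors, and a gene was called when edgeR's quasi-likelihood test gave a Benjamini-Hochberg adjusted p under 0.05 over all genes tested. Library totals were 123139589 to 188225634 counts in PC3 and 48186276 to 59838372 in VCaP. FOXA1 itself stood at 296, 247 and 261 CPM in the PC3 NSI libraries and 165, 184 and 164 in siFOXA1, so 63.8% remained (log2 fold change −0.65, SE 0.10, adjusted p = 0.00222). In VCaP it went from 458, 468 and 544 to 85.2, 73.6 and 83.1 CPM, so 16.5% remained (−2.60, SE 0.09, adjusted p = 1.84e-07). The line markers fitted the labels: ERG, KLK3, KLK2 and TMPRSS2 summed to 1929.9 to 2290.4 CPM in VCaP NSI and at most 0.464 CPM in PC3 NSI, and CAV1, CAV2 and VIM to 888 to 952 CPM in PC3 NSI and at most 1.35 CPM in VCaP NSI. Other programmes moved with the siRNA, and their part in the results below was not tested. All 8 interferon response genes listed were called higher in PC3 (summed level 243 to 348 CPM in NSI, 3283 to 3492 in siFOXA1), and 7 of 8 in VCaP, with 1 called lower (17.5 to 18.6 and 29.4 to 35.3 CPM). All 6 proliferation genes listed were called lower in both lines, from 449 to 481 down to 259 to 283 CPM in PC3 and from 1369 to 1495 down to 780 to 1029 CPM in VCaP. In the VCaP siFOXA1 libraries the 4 VCaP line markers summed to 1012 to 1333 CPM, with 2 called lower, and the mitochondrial share of counts was 4.04% to 4.69% against 3.02% to 3.29% in NSI. In PC3, the 3 leukocyte markers summed to 26.6 to 29.1 CPM in NSI and 44.4 to 49.9 in siFOXA1, nearly all of it CD68, with PTPRC and CD3E at most 0.121 and 0.0132 CPM; the 3 fibroblast markers summed to 23.5 to 28.3 and 40.9 to 45.5 CPM, with 2 called higher and 1 lower. In each of the 4 groups 1 library stood further from the other 2 than they did from each other, by chi-square per degree of freedom. In PC3 these were NSI replicate 2 (141 and 98.9, with 41.7 between the others) and siFOXA1 replicate 2 (59.9 and 82.6, with 20.1). In VCaP they were siFOXA1 replicate 3 (35.9 and 22.7, with 9.80) and NSI replicate 3 (19.6 and 27.5, with 11.4).

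In PC3, most of the 38 genes lay below their NSI level after FOXA1 siRNA. All 38 passed the filter on low counts; 14 were called lower and 6 higher, and 18 were not called. Over all 26435 genes tested, 12.1% were called lower, 15.0% higher and 27.0% either way, so the count of rises was close to the background and the count of falls was not. The log2 fold change was negative for 31 of 38, with a median of −0.31 against 0.02 over all genes tested. The siFOXA1 libraries lay entirely below NSI for 22 of the 38 and entirely above for 6, against 20.5% and 23.9% of all genes tested. The falls were modest, the largest being FASN at −0.68. Same-numbered PC3 libraries deviated together, but the calls above come from a fit without that number. A fit that blocks on it called 28 of the 38 lower and 6 higher, and 5563 lower and 5734 higher of all 26435 genes. Without NSI replicate 2, and equally without siFOXA1 replicate 2, 16 were called lower and 5 higher. The falls were 9 without NSI replicate 3 and 7 without siFOXA1 replicate 1, and the rises 3 without siFOXA1 replicate 3. Calls over all genes moved too. Against 3194 falls with all libraries, there were 3265 without NSI replicate 2 and 3535 without siFOXA1 replicate 2. Without NSI replicate 3 there were 1909, and without siFOXA1 replicate 1 there were 1520.

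In VCaP the same 38 genes moved both ways, but the count of falls was within 2 genes of what the share over all genes gives. The count of rises was not. There 14 were called higher, 7 lower and 17 neither, against 22.5% higher, 23.3% lower and 45.8% either way of all 22925 genes tested. The median log2 fold change was 0.10 against 0.02 over all genes tested. The siFOXA1 libraries lay entirely above NSI for 16 genes and entirely below for 11, against 27.9% and 28.0% of all genes tested. The rises reached further than in PC3, with ABCG1 at 1.36, LPIN1 at 1.13, ABCA1 at 1.06 and SREBF1 at 0.98.

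**Figure D1:**
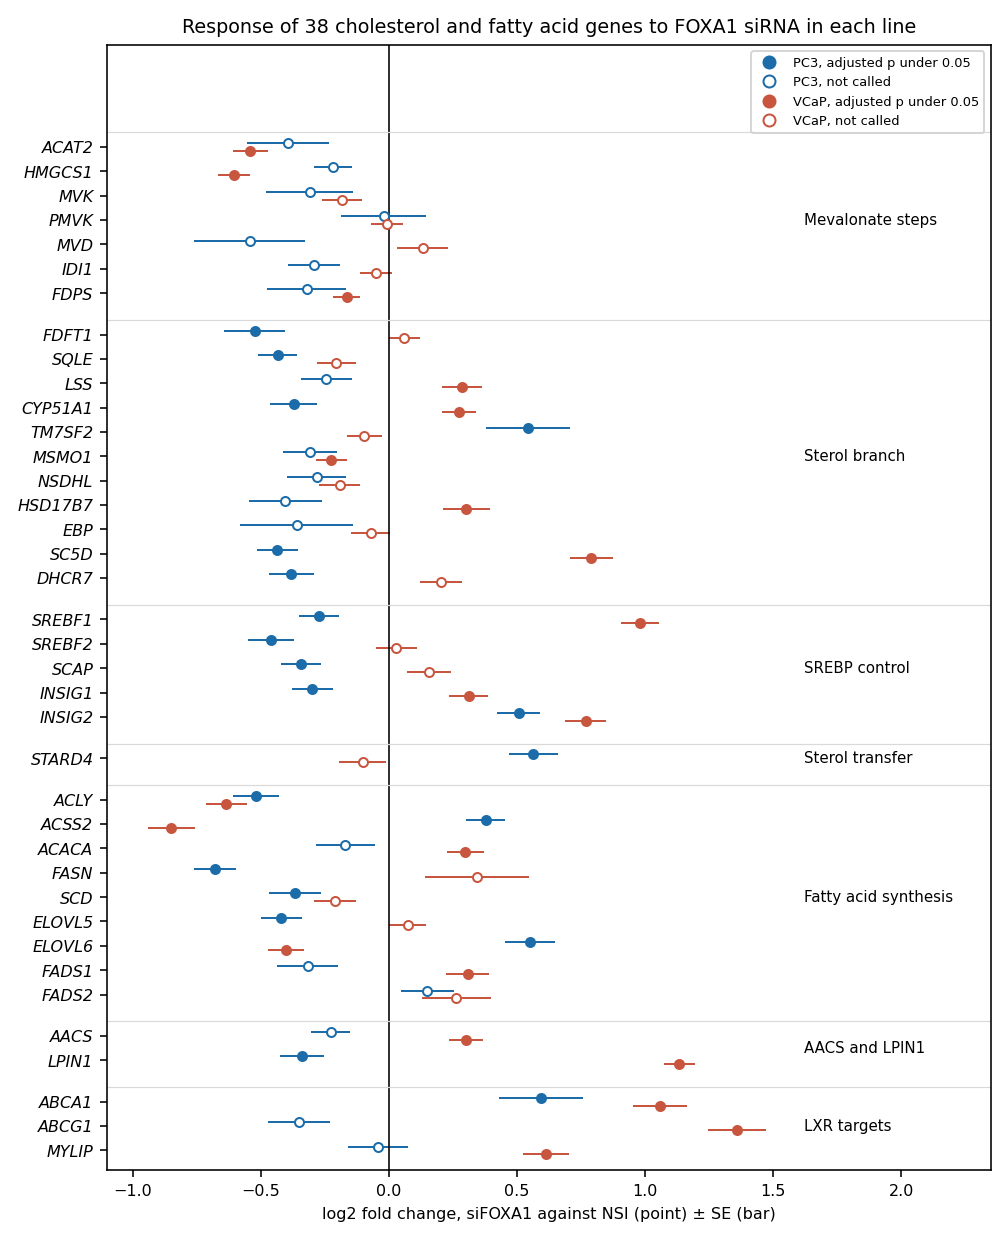
Log2 fold change of siFOXA1 against NSI (points) with its SE (bars) for each of the 38 genes, PC3 in blue and VCaP in red, ordered by role; filled points were called. In PC3, 14 filled points lie left of 0 and 6 right of it; in VCaP, 7 lie left and 14 right.

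The difference between the lines was tested by the interaction, the VCaP effect minus the PC3 effect, in a fit of all 12 libraries. It was called positive for 18 of the 38 genes and negative for 5, against 11.3% and 11.0% of all 30425 genes tested, and 15 were not called. Its median over the 38 was 0.49 against 0.05 over all genes tested. Scaling by library size alone turned the split of calls over all genes from 50.7% positive to 40.5%; among the 38 it gave 17 positive and 5 negative. The line cannot be told apart from the siRNA dose, the medium, the library kit, the use of strand in counting and the size of the FOXA1 fall, all of which differ with it. Called in both lines were 10 genes, 7 of them in opposite directions and 3 in the same, where 5.04% and 10.7% of the 19261 genes tested in both lines did so. CYP51A1, INSIG1, LPIN1, SC5D and SREBF1 were called lower in PC3 and higher in VCaP, a pattern of 2.11% of genes. ACSS2 and ELOVL6 had the reverse (2.93%), ABCA1 and INSIG2 were called higher in both (4.97%), and ACLY was called lower in both (5.72%).

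**Figure D2:**
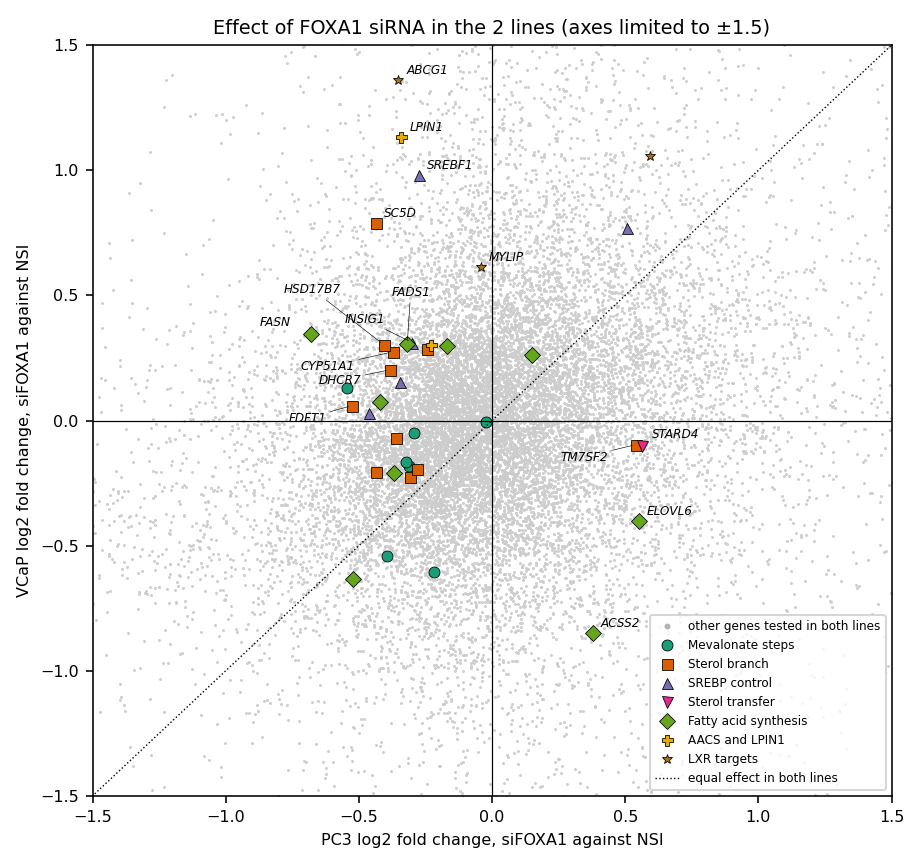
Log2 fold change in PC3 (x axis) against VCaP (y axis) for the genes tested in both lines (grey) and the 38 genes (coloured by role); named points had a called interaction above 0.6 in size. Of the 38, 31 lie left of 0 and 31 have a positive interaction (above the dotted diagonal of equal effects); ACSS2 and ELOVL6 lie at the lower right.

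All 5 control genes of the SREBP system were called in PC3, 4 lower and 1 higher, and in VCaP 3 were called higher and none lower. The interaction was called positive for 4 of the 5, all but INSIG2; the median log2 fold change was −0.30 in PC3 and 0.31 in VCaP. Over all genes tested, 12.1% were called lower and 15.0% higher in PC3, and 22.5% higher and 23.3% lower in VCaP. The interaction was called positive for 11.3% and negative for 11.0%. SREBF1 (chromosome 17, 17715387 to 17740316, minus strand, GRCh37), which encodes the SREBP that favours fatty acid genes, stood at 144, 143 and 148 CPM in PC3 NSI and 119.8, 125 and 115 in siFOXA1. In VCaP it stood at 121, 118 and 113 CPM in NSI and 228, 249.9 and 216 in siFOXA1, or 197% of NSI. The groups did not overlap in either line, and they lay in opposite order. SREBF1 fell by 0.27 (SE 0.08, adjusted p = 0.0313) on the log2 scale in PC3 and rose by 0.98 (SE 0.07, adjusted p = 6.91e-06) in VCaP, an interaction of 1.27 (SE 0.11, adjusted p = 9.29e-07). The PC3 fall was not called without NSI replicate 1 or 3, without siFOXA1 replicate 1 or 3, or with library size as the only scaling.

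SREBF2 (chromosome 22, 42229083 to 42303312, plus strand), which encodes the SREBP that favours sterol genes and whose promoter stretch is printed above, stood at 192, 171 and 194 CPM in PC3 NSI and 132, 128 and 143 in siFOXA1. Every siFOXA1 library was below every NSI library, and the fall was 0.46 (SE 0.09, adjusted p = 0.00664) on the log2 scale. In VCaP it stood at 250.1, 233 and 279 CPM in NSI and 248, 266 and 264 in siFOXA1. Those groups overlapped (0.03 (SE 0.08, adjusted p = 0.797)), and without NSI replicate 2 the value turned negative, at −0.04. The interaction was 0.51 (SE 0.13, adjusted p = 0.0126), and it was lost when PC3 NSI replicate 1 or 3 or PC3 siFOXA1 replicate 1 or 2 was left out. SCAP, the escort of the SREBP precursors, was at 106, 107 and 104 CPM in PC3 NSI and 82.8, 80.3 and 85.8 in siFOXA1, a fall of 0.34 (SE 0.08, adjusted p = 0.0118) that was not called without siFOXA1 replicate 1. In VCaP it went from 77.5, 79.6 and 81.7 to 81.5, 83.0 and 101 CPM with overlapping groups (0.15 (SE 0.09, adjusted p = 0.173)), and the third siFOXA1 library was the high one.

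INSIG1, an endoplasmic reticulum anchor that is itself an SREBP target, stood at 42.3, 45.4 and 43.9 CPM in PC3 NSI and 36.4, 36.5 and 34.0 in siFOXA1. The VCaP levels were 145, 160.1 and 153 CPM in NSI and 199, 197 and 172 in siFOXA1. It fell in PC3 by 0.30 (SE 0.08, adjusted p = 0.0251) and rose in VCaP by 0.31 (SE 0.08, adjusted p = 0.00846), with an interaction of 0.63 (SE 0.11, adjusted p = 0.00079). Its PC3 fall was not called under library size alone or without NSI replicate 3 or siFOXA1 replicate 1 or 3, nor its VCaP rise without NSI replicate 1. INSIG2, the second anchor, stood at 16.1, 16.2 and 17.6 CPM in PC3 NSI and 24.1, 23.3 and 23.6 in siFOXA1. In VCaP it went from 16.1, 18.5 and 16.8 to 28.7, 27.3 and 31.6 CPM. Both lines had siFOXA1 wholly above NSI, by 0.51 (SE 0.08, adjusted p = 0.0032) in PC3 and 0.77 (SE 0.08, adjusted p = 5.22e-05) in VCaP, and the interaction was not called (0.28 (SE 0.12, adjusted p = 0.116)).

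**Figure D3:**
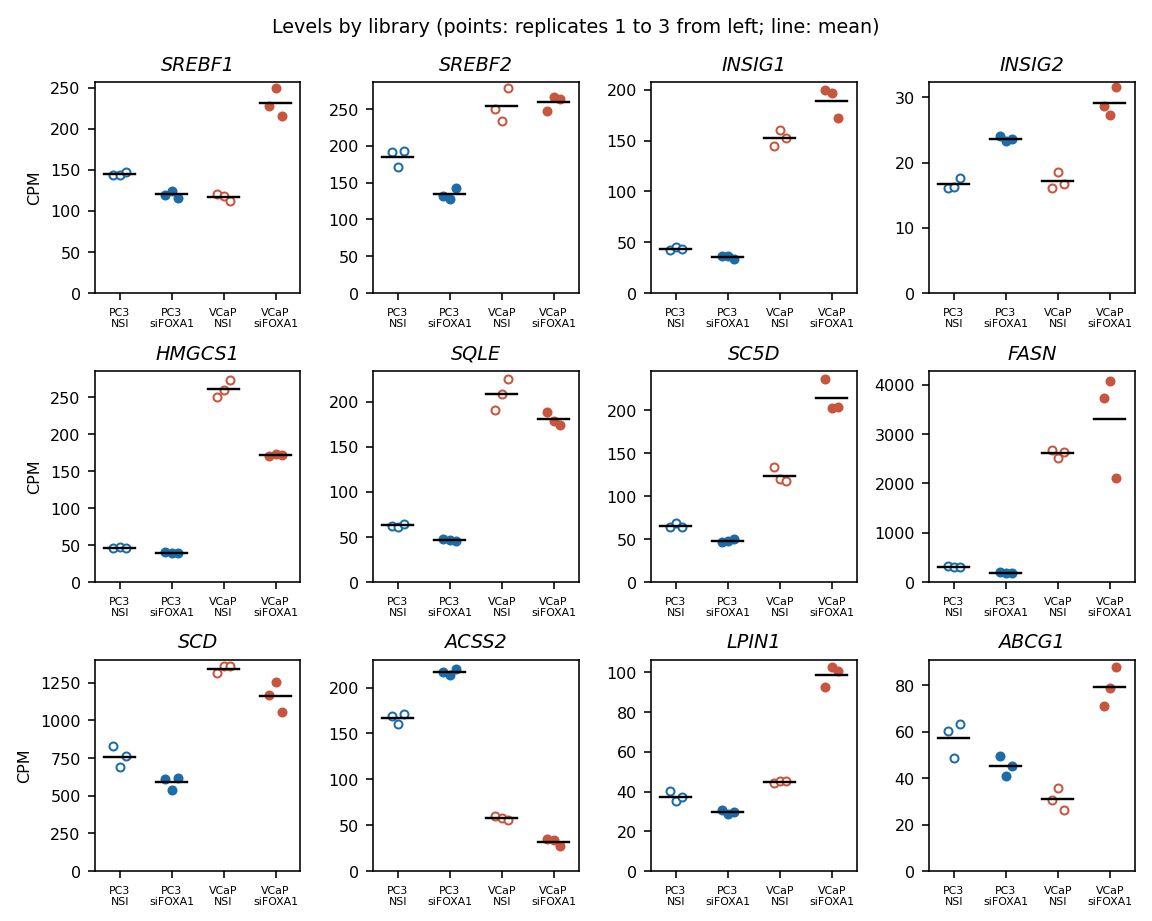
CPM of 12 of the genes in each library (points, replicates 1 to 3 from left) with the group mean (line), NSI open and siFOXA1 filled, each axis from 0. SREBF1, SC5D and LPIN1 fall in PC3 and rise in VCaP, ACSS2 does the reverse, and the third VCaP siFOXA1 library is the low one for FASN.

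The first 2 mevalonate steps, ACAT2 and HMGCS1, fell in VCaP, and none of the group was called in PC3 in the fit that gave the calls here. Under 14 alternative settings, the replicate block among them, PC3 falls were called for IDI1 in 7, MVD in 6, HMGCS1 in 5 and ACAT2 in 4. MVK and FDPS were called in 1 each. In VCaP 3 of the 7 were called lower and none higher (median −0.17), against 23.3% and 22.5% of all genes tested. Both counts were within 2 genes of what those shares give. In PC3 all 7 fold changes were negative (median −0.31). HMGCS1, which makes HMG-CoA from acetoacetyl-CoA, stood at 249.8, 259.8 and 274 CPM in VCaP NSI and 169.7, 173 and 172 in siFOXA1. All siFOXA1 libraries were low, and the fall was 0.61 (SE 0.06, adjusted p = 5.25e-05). In PC3 it went from 46.0, 47.1 and 46.0 to 40.7, 39.0 and 39.9 CPM, with no overlap but no call (−0.22 (SE 0.08, adjusted p = 0.0625)). The interaction was −0.37 (SE 0.10, adjusted p = 0.0173), so the VCaP change was the more negative, and it was not called without the filter on low counts. ACAT2, the cytosolic thiolase that makes acetoacetyl-CoA, went from 61.7, 58.4 and 69.1 to 43.7, 42.8 and 43.6 CPM in VCaP, a fall of 0.54 (SE 0.07, adjusted p = 0.000185). In PC3 it went from 22.5, 33.0 and 22.1 to 18.0, 21.4 and 19.5 CPM and was not called (−0.40 (SE 0.16, adjusted p = 0.0987)). FDPS, farnesyl diphosphate synthase, fell in VCaP by 0.17 (SE 0.05, adjusted p = 0.0283), a small change that was not called in 8 of 14 alternative settings.

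Each of the 7 mevalonate genes had its highest PC3 level in NSI replicate 2, one of the libraries that stood apart. Without it the PC3 values moved toward 0 for ACAT2 (−0.40 to −0.19), MVK (−0.31 to −0.07), MVD (−0.54 to −0.31), FDPS (−0.32 to −0.13) and EBP of the sterol branch (−0.36 to −0.03), while HMGCS1 stayed at −0.21. Without siFOXA1 replicate 2 they moved away from 0, and MVD (−0.77, adjusted p = 0.0254) and IDI1 (−0.36, adjusted p = 0.0390) were called lower. MVD, mevalonate diphosphate decarboxylase, is an example, at 23.6, 40.6 and 28.8 CPM in PC3 NSI and 19.9, 26.8 and 17.1 in siFOXA1 (−0.54 (SE 0.22, adjusted p = 0.0973)). EBP, a sterol isomerase, is another, at 58.4, 106 and 61.8 and 52.6, 68.6 and 55.2 CPM (−0.36 (SE 0.22, adjusted p = 0.26)). With the replicate block in PC3, 6 of the 7 were called lower, as were 5563 of all 26435 genes tested. The 6 were ACAT2 (−0.37, adjusted p = 0.00655), HMGCS1 (−0.22, 0.0148), MVK (−0.28, 0.0430), MVD (−0.53, 0.00126), IDI1 (−0.29, 0.00546) and FDPS (−0.31, 0.00682). PMVK, phosphomevalonate kinase, was near 0 in both lines (−0.02 and −0.01) and changed sign with the scaling and, in PC3, without NSI replicate 2. The PC3 counts ignored strand, and 69.6% of the ACAT2 exon length, 28.9% of FDPS and 19.9% of HMGCS1 overlap exons of genes on the other strand, so PC3 values of these 3 can hold reads of TCP1, RUSC1-AS1 or other neighbours. FDPS also has 2 named pseudogenes among which shared reads could be divided, as does HSD17B7 of the sterol branch. In that branch, 10.6% of the LSS exon length overlaps exons of genes on the other strand.

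In PC3, 5 of the 11 sterol-branch genes were called lower and 1 higher (median −0.37); in VCaP, 4 were called higher and 1 lower (median 0.06); and the interaction was called positive for 6 and negative for 1. The shares over all genes tested were 12.1% lower and 15.0% higher in PC3 and 22.5% higher and 23.3% lower in VCaP. For the interaction they were 11.3% positive and 11.0% negative. The VCaP counts were thus within 2 genes of what those shares give. FDFT1, squalene synthase, which commits farnesyl diphosphate to sterol, stood at 82.8, 107 and 86.9 CPM in PC3 NSI and 58.7, 69.5 and 64.3 in siFOXA1, a fall of 0.52 (SE 0.12, adjusted p = 0.0125) that was not called without siFOXA1 replicate 1. In VCaP it was at 95.1, 87.8 and 94.2 and 99.1, 96.5 and 93.2 CPM (0.06 (SE 0.06, adjusted p = 0.447)), with overlapping groups. The interaction was 0.60 (SE 0.13, adjusted p = 0.0038). SQLE, squalene epoxidase, a rate-limiting step, stood at 62.1, 61.5 and 64.6 CPM in PC3 NSI and 47.3, 46.5 and 45.4 in siFOXA1. It fell by 0.44 (SE 0.08, adjusted p = 0.00415), and the groups lay far apart. In VCaP it went from 190.3, 209 and 225 to 188, 179 and 174 CPM and narrowly missed a call (−0.21 (SE 0.08, adjusted p = 0.0509)), and the interaction was not called (0.25 (SE 0.12, adjusted p = 0.149)).

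SC5D, the lathosterol desaturase late in the route, had the largest line difference of the sterol enzymes. It stood at 63.9, 69.0 and 63.6 CPM in PC3 NSI and 46.9, 48.2 and 50.1 in siFOXA1. VCaP NSI libraries held 134, 120.3 and 118 CPM and siFOXA1 libraries 236, 203 and 204. No library of one group reached the other in either line: SC5D fell by 0.44 (SE 0.08, adjusted p = 0.00525) in PC3 and rose by 0.79 (SE 0.08, adjusted p = 5.91e-05) in VCaP, an interaction of 1.25 (SE 0.12, adjusted p = 2.76e-06). CYP51A1, lanosterol demethylase, had the same order with smaller steps, from 105, 109 and 106 to 88.2, 74.3 and 84.6 CPM in PC3 (−0.37 (SE 0.09, adjusted p = 0.0168)) and from 136, 147 and 154 to 178, 178 and 173 CPM in VCaP (0.27 (SE 0.07, adjusted p = 0.00774)). The interaction of CYP51A1 was 0.67 (SE 0.12, adjusted p = 0.000952), and its PC3 fall was not called without NSI replicate 3. DHCR7, the reductase of the last step, fell in PC3 by 0.38 (SE 0.09, adjusted p = 0.0128), though not without siFOXA1 replicate 1, and was not called in VCaP (0.20 (SE 0.08, adjusted p = 0.067)); its interaction was 0.60 (SE 0.12, adjusted p = 0.00248).

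LSS, which closes squalene epoxide to lanosterol, and HSD17B7, a sterol ketoreductase, were called higher in VCaP, by 0.28 (SE 0.08, adjusted p = 0.014) and 0.30 (SE 0.09, adjusted p = 0.0235). Neither was called in PC3 (−0.24 (SE 0.10, adjusted p = 0.099) and −0.41 (SE 0.14, adjusted p = 0.0674)), and both interactions were called, at 0.55 and 0.73. The VCaP rise of LSS was not called without NSI replicate 1 or 2 or siFOXA1 replicate 2, and that of HSD17B7 without NSI replicate 2 or siFOXA1 replicate 2 or 3, with DESeq2 or in the fit of all 12 libraries. MSMO1, a sterol methyl oxidase whose promoter stretch is printed above, went from 112, 110.1 and 121 to 101, 96.5 and 96.7 CPM in VCaP, a fall of 0.22 (SE 0.06, adjusted p = 0.015) that was lost without siFOXA1 replicate 2 and in the fit of all 12 libraries. In PC3 it went from 20.6, 24.2 and 21.5 to 18.3, 16.1 and 19.1 CPM without a call (−0.31 (SE 0.11, adjusted p = 0.0596)). NSDHL, which acts with MSMO1 and has 5 CCAAT matches, was not called in either line (−0.28 (SE 0.11, adjusted p = 0.101) in PC3 and −0.19 (SE 0.08, adjusted p = 0.0771) in VCaP). TM7SF2, a sterol reductase, was the one sterol-branch gene called higher in PC3, from 13.9, 21.6 and 15.2 to 22.0, 26.5 and 25.1 CPM (0.54 (SE 0.16, adjusted p = 0.0401)). Its lowest siFOXA1 library, at 22.0 CPM, was barely above its highest NSI library, NSI replicate 2 at 21.6 CPM, and the call was lost when any PC3 library except NSI replicate 2 was left out. In VCaP it went from 236, 215 and 215 to 212, 213 and 198 CPM (−0.10 (SE 0.07, adjusted p = 0.278)), and the interaction was −0.62 (SE 0.18, adjusted p = 0.0193). With the replicate block, LSS, MSMO1, NSDHL, HSD17B7 and EBP were also called lower in PC3 (adjusted p = 0.0134, 0.0210, 0.00770, 0.00826 and 0.0205). Of 14 alternative settings, the block among them, HSD17B7 was called lower there in 7, MSMO1 in 6, NSDHL in 2, and LSS and EBP in 1 each.

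STARD4, the sterol carrier, stood at 23.3, 20.6 and 22.3 CPM in PC3 NSI and 34.0, 29.5 and 34.2 in siFOXA1, a rise of 0.56 (SE 0.10, adjusted p = 0.00368). In VCaP it was at 13.2, 15.0 and 14.1 and 14.1, 13.8 and 11.7 CPM with overlapping groups (−0.10 (SE 0.09, adjusted p = 0.391)). The interaction was called, at −0.65 (SE 0.14, adjusted p = 0.00421).

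**Figure D4:**
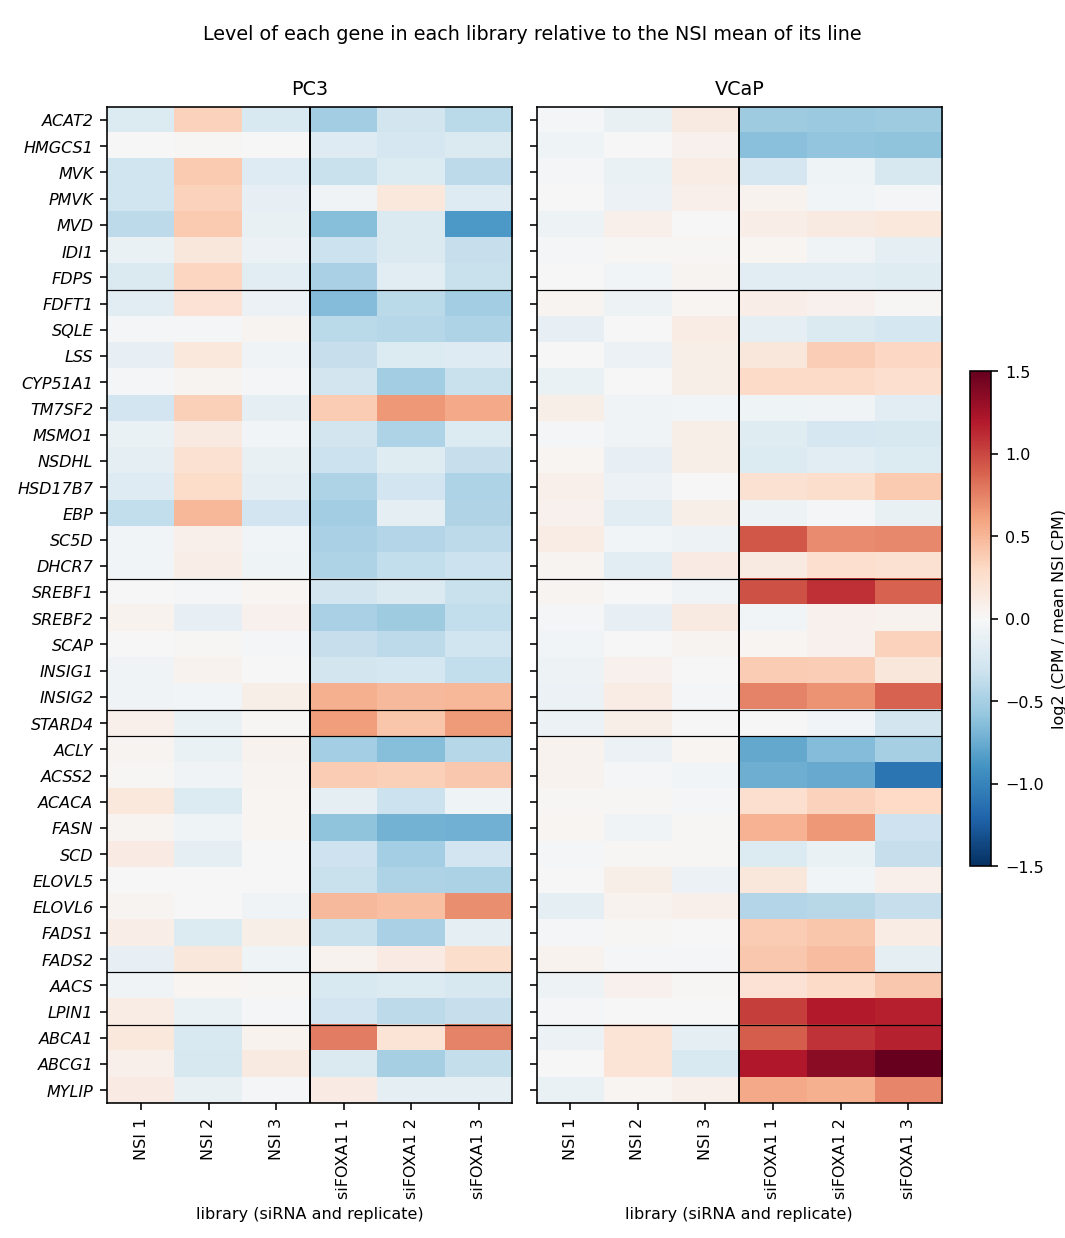
Level of each of the 38 genes in each library as log2 of CPM over the NSI mean of its line (colour, red above and blue below), PC3 on the left and VCaP on the right, with horizontal lines between the role groups. PC3 NSI replicate 2 is red across most mevalonate and sterol rows, and the SREBF1, SC5D, LPIN1 and ABCG1 rows are blue in PC3 siFOXA1 and red in VCaP siFOXA1.

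In PC3, 4 of the 9 fatty acid genes were called lower and 2 higher (median −0.32); in VCaP, 3 were called lower and 2 higher (median 0.07). In VCaP both counts were close to the shares over all genes tested (23.3% lower and 22.5% higher), and in PC3 those shares were 12.1% and 15.0%. ACLY, ATP citrate lyase, which cleaves citrate to acetyl-CoA, stood at 189.8, 173 and 192 CPM in PC3 NSI and 130.0, 119 and 137 in siFOXA1. In VCaP it stood at 138, 126 and 136 CPM in NSI and 78.3, 85.1 and 94.3 in siFOXA1. It fell in both lines, by 0.52 (SE 0.09, adjusted p = 0.00413) and 0.63 (SE 0.08, adjusted p = 0.000169), and the interaction was not called (−0.09 (SE 0.14, adjusted p = 0.701)). ACSS2, which makes acetyl-CoA from acetate, stood at 169, 161 and 171 CPM in PC3 NSI and 217, 213 and 221 in siFOXA1. In VCaP it went from 60.2, 57.4 and 56.0 to 34.8, 34.3 and 27.2 CPM. The groups were apart in both lines and in opposite order: ACSS2 rose by 0.38 (SE 0.08, adjusted p = 0.00819) in PC3, a call lost without siFOXA1 replicate 3, and fell by 0.85 (SE 0.09, adjusted p = 6.95e-05) in VCaP, an interaction of −1.21 (SE 0.13, adjusted p = 1.02e-05).

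FASN (chromosome 17, 80036209 to 80056208, minus strand), the synthase of palmitate, stood at 318, 295 and 315 CPM in PC3 NSI and 203, 189 and 188 in siFOXA1, the largest fall of the 38 in PC3 at 0.68 (SE 0.08, adjusted p = 0.000642). In VCaP it stood at 2665, 2521 and 2636 CPM in NSI and 3736, 4082 and 2109 in siFOXA1. There siFOXA1 replicates 1 and 2 were above every NSI library and replicate 3 was below every one, and FASN was not called (0.34 (SE 0.20, adjusted p = 0.199)). Without siFOXA1 replicate 3 it was called, at 0.58 (adjusted p = 0.000455), and with it the interaction was called at 1.04 (SE 0.25, adjusted p = 0.00675). FADS2, a desaturase of polyunsaturated fatty acids, had the same low library, at 68.0, 70.6 and 46.3 CPM in VCaP siFOXA1 against 53.5, 50.2 and 50.4 in NSI (0.26 (SE 0.14, adjusted p = 0.145)); without replicate 3 it was called at 0.43 (adjusted p = 0.000399). Without that library 15 of the 38 genes were called higher and 6 lower in VCaP, as were 4837 and 5042 of all 23517 genes tested. ACACA, acetyl-CoA carboxylase, the committed step, rose in VCaP from 1158, 1161 and 1119.5 to 1360.2, 1459 and 1408 CPM, by 0.30 (SE 0.07, adjusted p = 0.00755), a call lost without siFOXA1 replicate 2, and had overlapping groups in PC3 (−0.17 (SE 0.11, adjusted p = 0.304)). Its interaction, 0.49 (SE 0.16, adjusted p = 0.0346), was called in 6 of 19 alternative settings.

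SCD, which makes oleate, stood at 827, 689 and 762 CPM in PC3 NSI and 611, 535 and 620.1 in siFOXA1. The level in VCaP was 1311, 1358 and 1359 CPM in NSI and 1169.7, 1255 and 1057 in siFOXA1. It was wholly below NSI in both lines, with a called fall in PC3 of 0.37 (SE 0.10, adjusted p = 0.0285) and no call in VCaP (−0.21 (SE 0.08, adjusted p = 0.0657)); the interaction was not called (0.18 (SE 0.15, adjusted p = 0.472)). The fall in PC3 was not called in 6 of 14 alternative settings, among them upper-quartile factors, library size alone and the omission of NSI replicate 1 or 3 or siFOXA1 replicate 1 or 2. The elongases differed. ELOVL5, which extends polyunsaturated chains, fell in PC3 from 70.3, 70.1 and 70.6 to 56.0, 50.9 and 50.7 CPM (−0.42 (SE 0.08, adjusted p = 0.00612)) and overlapped in VCaP (0.07 (SE 0.07, adjusted p = 0.448)), an interaction of 0.51 (SE 0.12, adjusted p = 0.0046). ELOVL6, which extends palmitate and whose promoter held the one forkhead match, rose in PC3 from 15.4, 14.9 and 14.4 to 20.8, 20.4 and 24.1 CPM, by 0.55 (SE 0.10, adjusted p = 0.00434). In VCaP it fell from 77.3, 88.6 and 89.9 to 62.8, 63.9 and 66.9 CPM, by 0.40 (SE 0.07, adjusted p = 0.0014). The order of the groups was thus reversed between the lines, and the interaction was −0.93 (SE 0.13, adjusted p = 8.44e-05). FADS1, the other front-end desaturase, was not called in PC3 (−0.32 (SE 0.12, adjusted p = 0.0832)). It was called lower there in 3 of 14 alternative settings, among them the replicate block (adjusted p = 0.00277). In VCaP FADS1 was called higher (0.31 (SE 0.08, adjusted p = 0.0148)), a call lost without NSI replicate 1 or siFOXA1 replicate 1 or 2. Its interaction, 0.65 (SE 0.17, adjusted p = 0.011), was lost when PC3 NSI replicate 1 or 3 or PC3 siFOXA1 replicate 1 or 2 was left out. SCD and FADS2 each have 1 named pseudogene.

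LPIN1 (chromosome 2, 11817721 to 11967535, plus strand) stood at 40.3, 35.0 and 37.0 CPM in PC3 NSI and 30.6, 28.6 and 29.6 in siFOXA1. VCaP had 44.5, 45.3 and 45.1 CPM in NSI and 92.6, 103 and 101 in siFOXA1, groups far apart, with siFOXA1 at 219% of NSI. It fell by 0.34 (SE 0.09, adjusted p = 0.0212) in PC3, a call lost without NSI replicate 1 or 3 or siFOXA1 replicate 1 or 3, and rose by 1.13 (SE 0.06, adjusted p = 1.01e-06) in VCaP, an interaction of 1.49 (SE 0.12, adjusted p = 3.2e-07). AACS rose in VCaP by 0.30 (SE 0.07, adjusted p = 0.00494) and was not called in PC3 (−0.23 (SE 0.08, adjusted p = 0.0569)). In PC3 it was called lower in 5 of 14 alternative settings, among them the replicate block (adjusted p = 0.0120). The interaction of AACS was 0.55 (SE 0.11, adjusted p = 0.00147).

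The 3 LXR targets were all called higher in VCaP (median 1.06), where 22.5% of all genes tested were. In PC3 1 was called higher and none lower, against 15.0% and 12.1% of all genes tested. ABCA1, which exports cholesterol to lipid-poor apolipoprotein, stood at 28.7, 21.9 and 26.8 CPM in PC3 NSI and 43.8, 29.7 and 43.3 in siFOXA1. In VCaP it stood at 8.97, 11.0 and 8.67 CPM in NSI and 17.9, 20.3 and 21.3 in siFOXA1. It was wholly higher in both, by 0.59 (SE 0.16, adjusted p = 0.029) in PC3, where the second siFOXA1 library was low and the call was lost without NSI replicate 2 or 3 or siFOXA1 replicate 1 or 3, and by 1.06 (SE 0.11, adjusted p = 4.47e-05) in VCaP. The interaction was not called (0.49 (SE 0.22, adjusted p = 0.135)), but was with the replicate block (0.50, adjusted p = 0.00557). ABCG1 (chromosome 21, 43619799 to 43717354, plus strand), which exports cholesterol to lipoprotein particles, stood at 30.6, 35.7 and 26.3 CPM in VCaP NSI and 70.8, 78.8 and 87.8 in siFOXA1, the largest rise of the 38 at 1.36 (SE 0.11, adjusted p = 1.48e-05). In PC3 it went from 60.4, 48.8 and 63.2 to 49.4, 40.7 and 45.0 CPM with 1 siFOXA1 library above the lowest NSI library (−0.35 (SE 0.12, adjusted p = 0.0608)). There ABCG1 was called lower in 4 of 14 alternative settings, among them the replicate block (adjusted p = 0.00234). The interaction of ABCG1, 1.73 (SE 0.19, adjusted p = 7.54e-06), was the largest of the 38. MYLIP, a ubiquitin ligase of lipoprotein receptors, rose in VCaP from 7.55, 8.25 and 8.53 to 12.1, 11.7 and 13.4 CPM (0.61 (SE 0.09, adjusted p = 0.000448)) and was near 0 in PC3 (−0.04 (SE 0.12, adjusted p = 0.812)); its interaction was 0.68 (SE 0.16, adjusted p = 0.00592).

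The order of the genes in the NSI libraries differed between the lines. Compared per kilobase of exon, the highest NSI level in PC3 was that of SCD, at 142 ± 12.9 CPM per kb, followed by FDPS at 65.4 ± 14.2, ACSS2 at 53.8 ± 1.84 and FADS2 at 51.5 ± 5.58 (mean ± SD, n = 3), which did not differ beyond their spread. In VCaP the highest was FASN, at 304 ± 8.87 CPM per kb, followed by SCD at 250.5 ± 5.14, TM7SF2 at 129 ± 6.89 and ACACA at 104 ± 2.08. The lowest were ELOVL6 at 2.24 ± 0.0757 and ABCA1 at 2.29 ± 0.309 CPM per kb in PC3, and ABCA1 at 0.847 ± 0.110 and MVD at 2.13 ± 0.118 in VCaP. FASN stood at 36.1 ± 1.45 CPM per kb in PC3. Levels of the lines are set side by side and were not tested, since the kit and the use of strand differed.

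**Figure D5:**
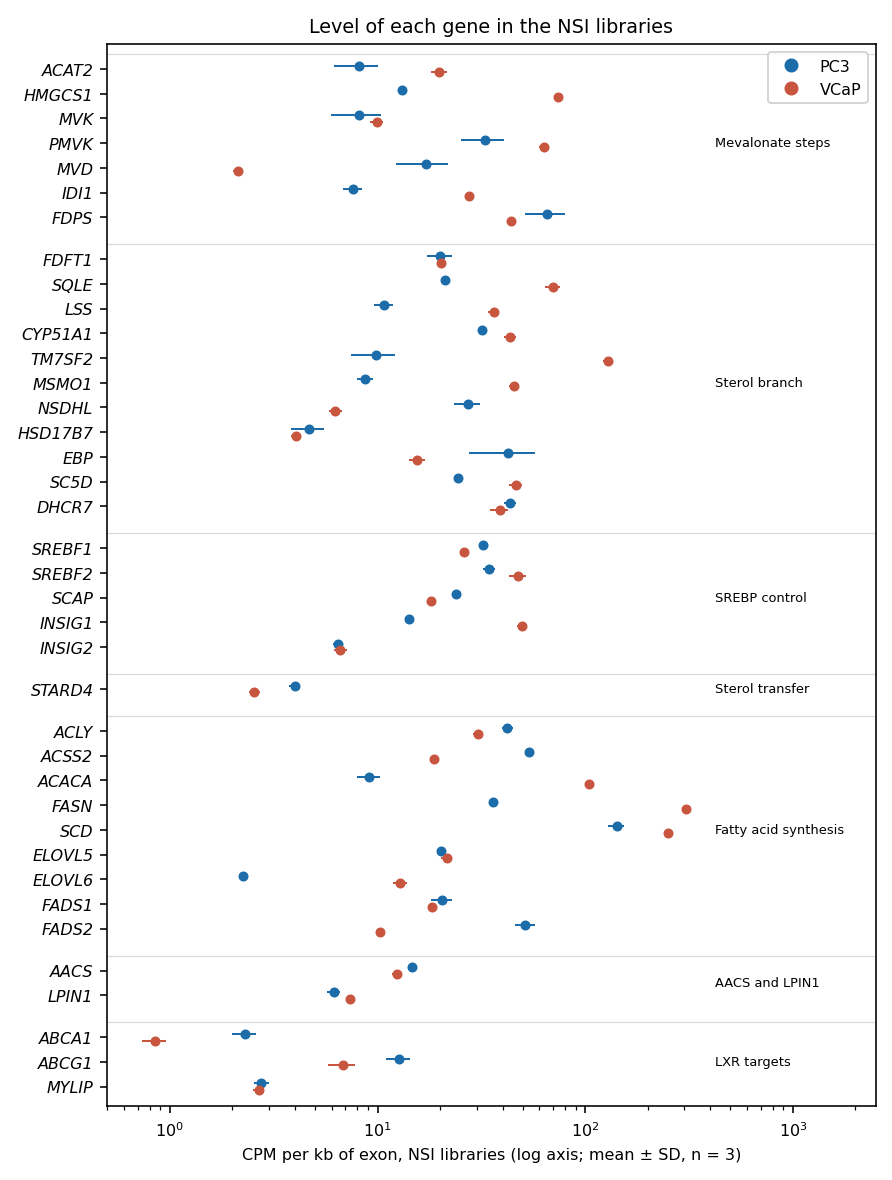
CPM per kilobase of exon of each of the 38 genes in the NSI libraries of PC3 (blue) and VCaP (red), mean with SD over 3 libraries, on a log axis. FASN, SCD, TM7SF2 and ACACA are highest in VCaP, and SCD and FDPS in PC3.

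Neighbouring lipid pathways were read from the same fits, as counts called higher and lower. In PC3, where 15.0% of all genes tested rose and 12.1% fell, the counts of all 8 lists lay within 2 genes of what those shares give, in either direction. In VCaP, where 22.5% rose and 23.3% fell, 4 of the 8 counts of rises and 3 of the 8 counts of falls did. Of 11 isoprenoid branch genes, 0 rose and 3 fell in PC3, and 4 rose and 5 fell in VCaP. FNTA, the shared subunit of the farnesyl and geranylgeranyl transferases, fell in PC3 (−0.39, lost without siFOXA1 replicate 1) and rose in VCaP (0.37), an interaction of 0.78. Of 16 genes that carry, cleave or degrade the SREBP system, 2 rose and 1 fell in PC3, and 0 rose and 7 fell in VCaP. SEC23B, a subunit of the coat of vesicles leaving the endoplasmic reticulum, had a VCaP fall of 1.16 (SE 0.06, adjusted p = 8.45e-07) and a PC3 rise of 0.34 (SE 0.10, adjusted p = 0.0324) that was lost in 7 of 14 alternative settings. Of 15 sterol storage and oxysterol genes tested of 18 listed, 4 rose and 1 fell in PC3, and 6 rose and 4 fell in VCaP. SOAT1, which esterifies cholesterol for storage, stood at 11.0, 10.9 and 10.4 CPM in PC3 NSI and 17.1, 14.6 and 17.3 in siFOXA1, and at 79.5, 81.1 and 80.8 and 37.0, 34.8 and 35.1 CPM in VCaP. It rose in PC3 by 0.60 (SE 0.10, adjusted p = 0.00334) and fell in VCaP by 1.18 (SE 0.05, adjusted p = 4.6e-07), an interaction of −1.75 (SE 0.12, adjusted p = 8.82e-08).

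Of 10 uptake and lysosomal sterol genes, 3 rose and 1 fell in PC3, and 3 rose and 5 fell in VCaP. The counts in this paragraph stand against 15.0% and 12.1% of all genes tested in PC3, and 22.5% and 23.3% in VCaP. NPC1, which exports cholesterol from lysosomes, rose in both lines (0.46 in PC3, 1.03 in VCaP), the PC3 call being lost without NSI replicate 3 or siFOXA1 replicate 1 or 3, while SCARB2, a lysosomal membrane protein, rose in PC3 (0.79) and fell in VCaP (−0.82). Of 8 LXR genes and other LXR targets, 1 rose and 1 fell in PC3, and 3 rose and 2 fell in VCaP. RXRA, the partner of the LXRs, rose in VCaP from 34.9, 33.2 and 36.1 to 63.4, 65.3 and 64.8 CPM (0.89 (SE 0.05, adjusted p = 2.21e-06)) and was not called in PC3 (−0.07). NR1H3, which encodes an LXR, rose in PC3 by 0.47 (SE 0.12, adjusted p = 0.0233), a call lost when NSI replicate 1 or 3 or siFOXA1 replicate 1 or 3 was left out, and was not called in VCaP (−0.23), where its NSI level was 1.54 ± 0.132 CPM.

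Of 24 other fatty acid synthesis genes, 4 rose and 4 fell in PC3, and 10 rose and 4 fell of 23 tested in VCaP. For the lists in this paragraph too, the shares over all genes were 15.0% and 12.1% in PC3, and 22.5% and 23.3% in VCaP. ACSL5, which activates long-chain fatty acids, went from 1.88, 2.05 and 2.33 to 15.1, 13.7 and 14.6 CPM in PC3 (2.79 (SE 0.12, adjusted p = 2.41e-06)) and rose in VCaP by 0.49. ELOVL2, an elongase of very long polyunsaturated chains, went from 63.8, 63.7 and 62.8 to 16.4, 12.4 and 13.1 CPM in VCaP (−2.19 (SE 0.10, adjusted p = 4.05e-07)) and was not called in PC3 (0.18). Of 12 glycerolipid genes tested, 2 rose and 3 fell in PC3, and 5 rose and 6 fell in VCaP. GPAT3, which makes the first acylation of glycerol phosphate, fell in PC3 by 1.06 (SE 0.09, adjusted p = 0.000124) and rose in VCaP by 2.10 (SE 0.15, adjusted p = 5.51e-06). Of 18 fatty acid oxidation genes, 1 rose and 4 fell in PC3, and 3 rose and 9 fell in VCaP. HADH, a dehydrogenase of that route, fell in both lines (−0.63 in PC3, −0.39 in VCaP), and PPARA, a receptor that raises oxidation genes, fell in VCaP (−1.05) and was not called in PC3 (0.25).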

How the data were processed

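RNA of 12 libraries, 2 lines by 2 siRNAs with 3 replicates each, was grouped by the sample titles. Per the file headers, the authors made the deposited expected counts with featureCounts, summing exons by gene of GENCODE v28lift37 basic on GRCh37. Fragments with several locations or genes were divided among them, so counts need not be whole, and PC3 counts ignored strand while VCaP counts used the reverse strand. The submitters' processing notes name STAR 2.7.3a and Subread 2.0.0. Splitting lowers genes that share sequence or exons with others.

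Counts were rounded to whole numbers. Each line (6 libraries) and the interaction (all 12) were fitted with edgeR 4.0.16 in R 4.3.3. Genes were filtered with filterByExpr, then TMM factors were set (0.959 to 1.04 in the fits of single lines). A two-sided quasi-likelihood test with Benjamini-Hochberg adjustment over all genes tested followed, called at an adjusted p under 0.05. The SE of a log2 fold change is its size over the square root of F. Between replicates, edgeR's biological coefficient of variation came to 15.0% for PC3, 9.90% for VCaP and 12.8% for all 12. Alternatives were DESeq2 1.42.0 and its size factors, upper-quartile factors, library size alone, no filter, a replicate block, a joint fit and leaving out each library; TMM before the filter was added after seeing the data. Scripts were tested on simulated data.

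The titles share replicate numbers without saying what a number marks. Deviations of same-numbered libraries correlated at 0.49, 0.63 and 0.24 in PC3, against means of −0.10, −0.46 and −0.05 for other numbers. In VCaP the values were 0.11, 0.02 and 0.37, against −0.01, 0.01 and −0.23. All calls are from fits without the replicate number, except where the replicate block is named. Replicates differed by more than sampling noise (chi-square per degree of freedom 9.80 to 141).

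The 38 genes, the groups and the lists were chosen with earlier results of these data known. Values in every library are given for the 6 largest rises and falls among called genes in each line, the 4 largest called interactions of each sign and 9 genes named in any case, and from each neighbouring list 1 gene per line is named, the call of lowest adjusted p whose mean reached 1 CPM. Other genes described in full were chosen after their values were seen. Coordinates of genes are those of the deposited tables. ACAT2, FDFT1, SQLE, FASN and ABCG1 had no promoter sequence in the table used. GPAT4 and PECAM1 matched no gene name. One marker of the VCaP line is not reported here and was left out of its summed level.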

Additional observations from a re-analysis of the deposited data

Results flagged for a closer look

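By the test of the interaction in edgeR's fit of all 12 libraries, the effect of FOXA1 siRNA differed between the lines for 23 of the 38 genes. Of all 30425 genes tested, 22.2% were called either way. Among the genes named outside the 38, the effect also differed for FOXA1 itself and for 12 genes of the neighbouring lists. Those 12 had been named for the lowest adjusted p of their list in a line, so their number does not describe the lists. The values are the VCaP effect minus the PC3 effect on the log2 scale. Dose, medium, kit, strand use and the size of the FOXA1 fall (−1.93) cannot be told apart from the line.

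Among the SREBP control genes the values were SREBF1 1.27, INSIG1 0.63, SCAP 0.52 and SREBF2 0.51. Among the sterol enzymes they were SC5D 1.25, HSD17B7 0.73, CYP51A1 0.67, FDFT1 0.60, DHCR7 0.60, LSS 0.55, TM7SF2 −0.62 and HMGCS1 −0.37, and for the sterol carrier STARD4 −0.65. Among the fatty acid genes they were FASN 1.04, FADS1 0.65, ELOVL5 0.51, ACACA 0.49, ELOVL6 −0.93 and ACSS2 −1.21. LPIN1 stood at 1.49 and AACS at 0.55, and the LXR targets ABCG1 at 1.73 and MYLIP at 0.68.

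Outside the 38 genes the values were GPAT3 3.19, RXRA 0.98, FNTA 0.78, NPC1 0.59, PDSS2 −0.40, NR1H3 −0.68, PPARA −1.28, SEC23B −1.48, SCARB2 −1.59, SOAT1 −1.75, ACSL5 −2.29 and ELOVL2 −2.35. Leaving out 1 library ended the call of the interaction for ACACA, PDSS2, SREBF2, FADS1, NPC1, NR1H3 and TM7SF2, for TM7SF2 only without VCaP NSI replicate 1; HMGCS1 lost it without the filter on low counts.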

How the results depend on the processing

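Counts of called genes among the 38 stayed within 1.5 times their value, except in PC3. There 14 genes were called lower, against 22 with DESeq2, 22 in the fit of all 12 libraries and 28 with the replicate block. Over all genes, the falls called were 3194, 3895, 4159 and 5563 in the same order. Leaving out 1 library gave 7 to 16 called lower and 3 to 5 called higher, with 1520 to 3535 called lower and 2425 to 4327 called higher over all genes. TMM before the filter, chosen after seeing the data, gave 19 lower and 6 higher, with 3632 lower and 3640 higher of all 26435 genes. In VCaP, alternatives gave 10 to 16 higher and 5 to 9 lower, and for the interaction 15 to 20 positive and 4 to 6 negative. Over all genes the ranges were 4333 to 5861 higher and 3932 to 5687 lower in VCaP. For the interaction they were 2504 to 4618 positive and 2735 to 4194 negative. In VCaP, where it is not settled whether the numbers mark pairs, the replicate block gave 15 higher and 8 lower (DHCR7 adjusted p = 0.0499, SCD 0.0330). Of all 22925 genes it called 5795 higher and 5687 lower. For the interaction the block gave 20 positive and 5 negative among the 38, and 4618 and 4194 of all 30425 genes. MVD (adjusted p = 0.00258) and ABCA1 (0.00557) were gained. The block ended no call among the 38.

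Of the single-gene values under alternatives, 440 of 532 in PC3, 487 of 532 in VCaP and 680 of 722 for the interaction kept direction and side of the threshold. The reversals below concerned values that were not called, and their cause was not tested. In PC3, PMVK was 0.0078 under upper-quartile factors and 0.0367 under library size alone, and MYLIP 0.0156 with library size alone. Leaving out 1 library gave −0.154 to 0.181 for PMVK, −0.135 to 0.0173 for MYLIP and −0.155 to 0.0233 for RXRA there. In VCaP, PMVK was 0.0421 with upper-quartile factors and 0.0243 in the joint fit, and leaving out 1 library gave −0.0569 to 0.0293 for PMVK and −0.0374 to 0.0974 for SREBF2. The interaction of PMVK was −0.00131 with DESeq2 size factors, −0.0553 with library size alone and −0.00451 with DESeq2. Leaving out 1 library gave interactions of −0.197 to 0.0970 for PMVK, −0.123 to 0.206 for MVK, −0.0448 to 0.205 for FDPS, −0.0583 to 0.149 for MSMO1, −0.0439 to 0.159 for NSDHL and −0.0440 to 0.395 for EBP. PC3 NSI replicate 2 was the library whose omission turned MVK, FDPS, NSDHL and EBP. With 3 libraries a group, small changes such as FDPS in VCaP sit at the limit of what was detectable.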
